A study of Mus musculus with 23 samples.

Results

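The myelin genes described here are Aspa, Mbp, Mog, Mag, Mobp, Mal, Cnp and Cldn11, which oligodendrocytes, the glial cells that wrap axons in the brain, use to build and maintain the myelin sheath. Probe sets whose only gene symbol was one of these names were taken, and each of the 8 genes had exactly 1 such probe set, out of 22180 genes named on the array. The probe sets are 17265748 for Aspa, 17352175 for Mbp, 17344822 for Mog, 17489341 for Mag, 17523192 for Mobp, 17391332 for Mal, 17256404 for Cnp and 17396652 for Cldn11. Their levels were followed on all 23 whole-transcript microarrays of the series, each from the microdissected nucleus accumbens (a ventral striatal region of reward) of 1 C57BL/6J mouse. The groups were 6 female and 6 male mice labelled knockdown, which had received an adeno-associated virus with a short hairpin RNA against Nr1d1, and 5 female and 6 male control mice, whose virus carried a scrambled hairpin. All 4 groups therefore carried a virus injected into the region about 5 weeks earlier, and were about 15 weeks old at collection. The labels also give collection on postpartum day 7 and do so for males as well, so reproductive state was not used. The sources used here give neither the hour of collection, nor the cells the virus reached, nor the promoter behind the hairpin. Nr1d1 encodes the circadian repressor REV-ERBα, and the series concerns its role in this region in social reward and anxiety. Setting knockdown against control mice within each sex asks whether the myelin genes differed after the knockdown.

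Myelin is a spiral of oligodendrocyte membrane that insulates axons and speeds conduction. Mature oligodendrocytes switch on its genes together as they differentiate from precursor cells, under transcription factors such as SOX10 and MYRF. In the ventral striatum these cells lie among medium spiny neurons and are dense in the fibre bundles that cross the region and in the anterior commissure beside it. In whole tissue, fewer oligodendrocytes and less RNA per oligodendrocyte cannot be told apart.

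Promoters of 7 of the 8 genes were read from RefSeq (GRCm38.p6), from 250 bases before to 50 bases after each listed transcription start. That of Mbp was not used here, and Mag had 3 entries. Those of Mog and Cnp, whose levels moved together most closely in males, and of Aspa and Mal, the pair closest over all arrays, follow, each 5′ to 3′ on the gene's strand. Capitals mark the motifs of MYRF (CTGGCAC or CTGGTAC) and SOX10 (ACAAAG), both strands searched.
Mog, chr17:37023349-37023648, minus strand: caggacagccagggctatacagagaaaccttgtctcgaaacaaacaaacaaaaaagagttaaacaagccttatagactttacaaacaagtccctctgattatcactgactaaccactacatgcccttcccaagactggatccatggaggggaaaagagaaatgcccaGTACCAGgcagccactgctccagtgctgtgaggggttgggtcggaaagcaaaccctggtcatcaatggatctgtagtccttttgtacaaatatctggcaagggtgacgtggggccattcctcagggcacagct
Cnp, chr11:100574689-100574988, plus strand: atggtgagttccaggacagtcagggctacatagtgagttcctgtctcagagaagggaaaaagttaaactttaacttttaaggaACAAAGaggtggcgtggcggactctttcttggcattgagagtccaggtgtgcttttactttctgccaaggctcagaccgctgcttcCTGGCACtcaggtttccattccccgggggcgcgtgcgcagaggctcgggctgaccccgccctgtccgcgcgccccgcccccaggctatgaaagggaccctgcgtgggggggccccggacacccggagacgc
Aspa, chr11:73324588-73324887, minus strand: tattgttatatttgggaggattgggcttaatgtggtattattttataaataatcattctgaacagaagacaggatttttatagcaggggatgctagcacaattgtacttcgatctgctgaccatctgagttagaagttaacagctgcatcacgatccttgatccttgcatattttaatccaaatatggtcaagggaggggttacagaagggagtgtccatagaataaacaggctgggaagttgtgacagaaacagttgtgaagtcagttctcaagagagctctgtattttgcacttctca
Mal, chr2:127656646-127656945, minus strand: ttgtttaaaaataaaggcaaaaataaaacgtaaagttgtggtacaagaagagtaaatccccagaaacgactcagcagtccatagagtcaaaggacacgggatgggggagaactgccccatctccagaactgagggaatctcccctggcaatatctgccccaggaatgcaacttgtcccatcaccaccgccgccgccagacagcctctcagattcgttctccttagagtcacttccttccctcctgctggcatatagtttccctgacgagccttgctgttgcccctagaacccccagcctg
The Mog promoter held a MYRF motif, on the opposite strand, 83 bases before the start. The Cnp promoter held a MYRF motif 81 bases and a SOX10 motif 167 bases before the start. The windows of Aspa and Mal held neither. The Aspa window lies inside the gene's annotated span, so the bases before the outer start of Aspa were not read. A gene was counted if any of its entries held the motif, which favours Mag with 3 entries, while the shares of promoters given beside are per single entry. Of the 7 genes, Mog, Mag and Cnp held either MYRF motif, against 7.1% of 32851 promoters of the same length. Mag, Mobp and Cnp held the SOX10 motif, against 18.7% of promoters, and Mobp held it at 6 positions. The core site that REV-ERB receptors bind (AGGTCA, both strands) was in 0 of the 7 and in 16.3% of promoters. These matches describe letters in a short window and say nothing about binding.

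All values are the deposited log2 intensities. The 11 female arrays had medians of 6.11 to 6.17 and the 12 male arrays of 5.84 to 5.88, so the 2 sets were on separate scales, and levels were compared only within a sex. The levels of sex chromosome genes fitted the labels on 23 of 23 arrays, and no pair of arrays held identical values. Nr1d1, the targeted gene, averaged 9.99 ± 0.16 in knockdown females (SD, n = 6) and 10.04 ± 0.07 in control females (SD, n = 5), and 9.58 ± 0.13 in knockdown males and 9.59 ± 0.20 in control males (SD, n = 6 each). Its difference, −0.05 in females (SE 0.09, limma adjusted p = 0.963) and −0.01 in males (SE 0.09, limma adjusted p = 0.997), was smaller than the spread between mice, so the array does not show the knockdown that the labels state. Markers of medium spiny neurons, the main neurons of the region, had a list mean between 10.42 and 11.15 on every array. Markers of cortical excitatory neurons, a neighbouring tissue, ranged widely. Their list mean of 8 genes ran over 7.36 to 8.39 in knockdown females and 7.53 to 8.19 in control females, and over 6.34 to 7.96 in knockdown males and 6.18 to 8.34 in control males. The vesicular glutamate transporter gene Slc17a7, which leads that list, lay between 8.92 and 11.13 in females. In males it fell into 2 clusters, with 4 arrays (knockdown replicate 6 and control replicates 3, 5 and 6) at 4.64 to 6.17 and the other 8 at 8.01 to 10.34. The male differences of the 8 myelin genes between knockdown and control are therefore given with and without these 4 arrays. So are some of their slopes on Slc17a7 and Mog over all arrays. Other values, the male differences of Nr1d1 and of the gene lists among them, include the 4 arrays unless stated.

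None of the 8 myelin genes differed between knockdown and control mice past the threshold in either sex. In females 5 were higher and 3 lower in knockdown mice, with a median difference of 0.02, and in males 2 were higher and 6 lower, with a median of −0.07, while the median over all named genes was 0.0003 in females and 0.0033 in males. All 8 genes had overlapping groups in both sexes. The gene farthest from its controls was Aspa, with a change of −17.3% in knockdown males at an unadjusted p of 0.0228 in limma. The test was limma over all 41345 probe sets, with Benjamini-Hochberg adjustment and a threshold of 0.05. It called 0 of the 8 genes in females, where 0% of probe sets were called, and 0 of the 8 in males, where the share was also 0%. At an unadjusted p under 0.05 limma passed 0 of the 8 in females, against 2423 probe sets (5.86%), and 1 of the 8 in males, against 1948 (4.71%). Beside the 6 of 8 members that were lower in knockdown males, 7 of 8 measured cortical neuron genes and 10 of 10 medium spiny neuron genes were higher there, with medians of 0.25 and 0.10 and 0 called, and their part in the values of the myelin genes was not tested. Adjusted p-values of the members ran from 0.883 to 0.994 in females and from 0.996 to 0.997 in males. The 95% intervals reached 0.13 to 0.24 to either side of the difference in females and 0.12 to 0.23 in males, before any adjustment. A call after adjustment over all probe sets needs a difference beyond these limits, as Aspa in males shows.

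**Figure D1:**
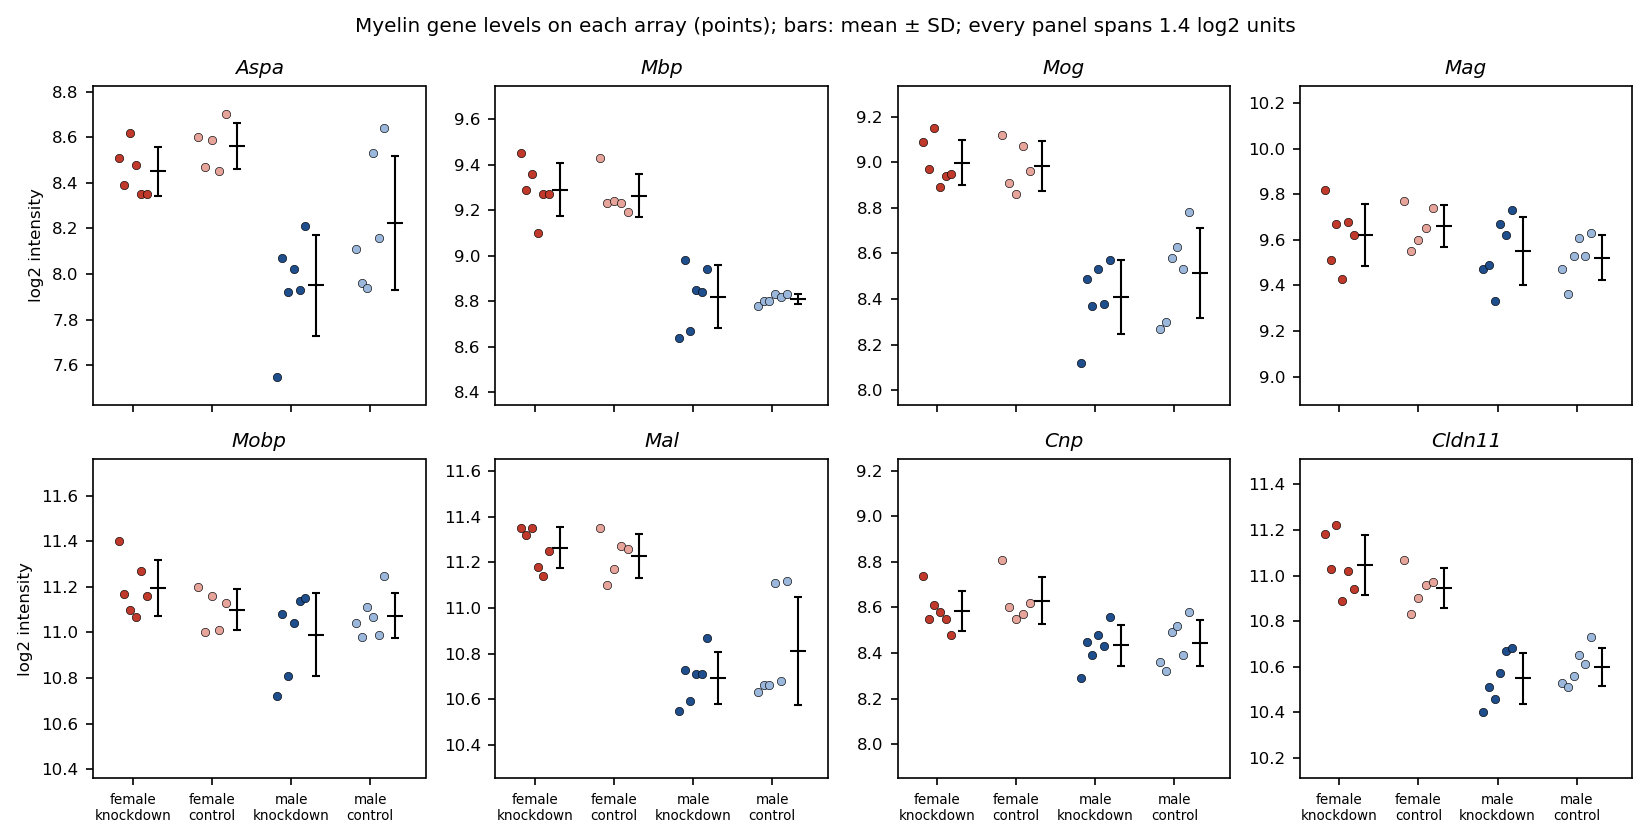
Log2 intensity of each myelin gene on each of the 23 arrays (points), in female knockdown, female control, male knockdown and male control mice, with the group mean and SD beside the points; every panel spans the same height. Knockdown and control points overlap for all 8 genes in both sexes, and Aspa has the widest spread in males.

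Aspa encodes aspartoacylase, the oligodendrocyte enzyme that splits N-acetylaspartate from neurons into acetate, used for myelin lipids, and aspartate. In males the 6 knockdown arrays read 7.55, 8.07, 7.92, 8.02, 7.93 and 8.21, against 8.11, 7.96, 7.94, 8.53, 8.16 and 8.64 on the 6 control arrays. Every knockdown male lay below the control mean, while 4 of the 6 controls lay within the knockdown range. The difference was −0.27 (SE 0.11, 95% interval −0.50 to −0.04, limma adjusted p = 0.996), and without the 4 males low in Slc17a7 it was −0.30 (limma adjusted p = 0.665). In females Aspa read 8.51, 8.39, 8.62, 8.48, 8.35 and 8.35 in knockdown mice, against 8.60, 8.47, 8.59, 8.45 and 8.70 in control mice. There 5 of 6 knockdown females lay below the control mean, and the groups overlapped over most of their range. The difference was −0.11 (SE 0.12, 95% interval −0.35 to 0.13, limma adjusted p = 0.937). Averaged over both sexes it was −0.19 (SE 0.08, limma unadjusted p = 0.0263, adjusted p = 0.980), with 11 of 12 knockdown mice below the control mean of their sex. In that average limma called 0% of probe sets after adjustment and 4.71% (1949) at an unadjusted p under 0.05, and of the 8 members 0 and 1, the one being Aspa.

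Cnp encodes a cyclic nucleotide phosphodiesterase that keeps the cytoplasmic channels of myelin open. It read 8.48 to 8.74 in knockdown females (median 8.57), against 8.81, 8.60, 8.55, 8.57 and 8.62 in control females. In males it ran over 8.29 to 8.56 in knockdown mice and 8.32 to 8.58 in control mice, with a median of 8.44 in both. The groups were nearly superimposed in males, and the differences were −0.05 in females (SE 0.06, limma adjusted p = 0.953) and −0.01 in males (SE 0.06, limma adjusted p = 0.997). Without the 4 males low in Slc17a7 the male value turned to 0.008.

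Among the genes of compact myelin, Mbp encodes the basic protein that holds the cytoplasmic faces of the membrane together. In females it read 9.10 to 9.45 in knockdown mice (median 9.28), against 9.43, 9.23, 9.24, 9.23 and 9.19 in control mice, a difference of 0.03 (SE 0.06). In males it read 8.64, 8.98, 8.67, 8.85, 8.84 and 8.94 in knockdown mice, against 8.78, 8.80, 8.80, 8.83, 8.82 and 8.83 in control mice. The control males were nearly identical, with an SD of 0.02 against 0.14 in knockdown males, and 2 knockdown males lay below and 4 above all of them. The means differed by 0.01 (SE 0.06, limma adjusted p = 0.997), and by −0.0073 without the 4 males low in Slc17a7. The spread of the 2 groups was not tested.

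Mobp, another cytoplasmic protein of compact myelin, read 11.07 to 11.40 in knockdown females (median 11.17), against 11.20, 11.00, 11.16, 11.01 and 11.13 in control females. In males it ran over 10.72 to 11.15 in knockdown mice (median 11.06) and 10.98 to 11.25 in control mice (median 11.06). Its differences pointed opposite ways, 0.10 in females (SE 0.08) and −0.08 in males (SE 0.07, and −0.07 without the 4 males low in Slc17a7), and neither passed the test. Mal encodes a proteolipid that sorts lipid-rich membrane into myelin. It read 11.14 to 11.35 in knockdown females (median 11.29), against 11.35, 11.10, 11.17, 11.27 and 11.26 in control females, a difference of 0.04 (SE 0.09). In males it ran over 10.55 to 10.87 in knockdown mice (median 10.71) and 10.63 to 11.12 in control mice (median 10.67). Control males 4 and 6, at 11.11 and 11.12, stood above all other males, and the difference of means was −0.12 (SE 0.08, limma adjusted p = 0.996). It was −0.05 without control replicate 6 and −0.14 without the 4 males low in Slc17a7, and the medians of the 2 full groups ran the other way.

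Mog, a glycoprotein of the outermost myelin surface, read 9.09, 8.97, 9.15, 8.89, 8.94 and 8.95 in knockdown females, against 9.12, 8.91, 8.86, 9.07 and 8.96 in control females. In males it read 8.12, 8.49, 8.37, 8.53, 8.38 and 8.57 in knockdown mice, against 8.27, 8.30, 8.58, 8.63, 8.53 and 8.78 in control mice. Knockdown replicate 1 was the lowest and control replicate 6 the highest of the 12 males, and the rest overlapped. The differences were 0.01 in females (SE 0.09) and −0.11 in males (SE 0.08, limma adjusted p = 0.996), and the male value shrank to −0.02 without the 4 males low in Slc17a7. Mag, an adhesion protein of the innermost layer that faces the axon, differed by −0.04 in females (SE 0.07) and 0.03 in males (SE 0.07), and by 0.04 in males without the 4 low in Slc17a7. It read 9.43 to 9.82 in knockdown females, against 9.77, 9.55, 9.60, 9.65 and 9.74 in control females, and 9.33 to 9.73 in knockdown males, against 9.36 to 9.63 in control males. Cldn11, the claudin of the tight junctions between myelin layers, read 10.89 to 11.22 in knockdown females, against 11.07, 10.83, 10.90, 10.96 and 10.97 in control females. In males it read 10.40 to 10.68 in knockdown mice, against 10.51 to 10.73 in control mice. Its difference of 0.10 in females (SE 0.07, limma adjusted p = 0.883) had the smallest p of the 8 in that sex, and in males it was −0.05 (SE 0.06), or −0.04 without the 4 low in Slc17a7.

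**Figure D2:**
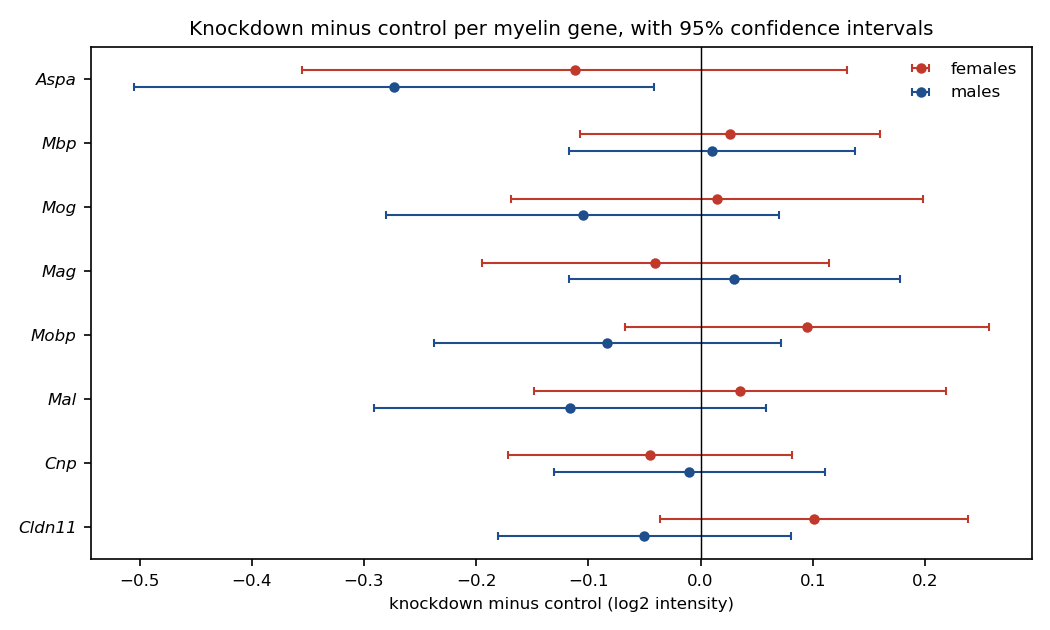
Knockdown minus control (log2 intensity) for each myelin gene, females above males, with 95% confidence intervals from limma. The interval of Aspa in males, −0.50 to −0.04, is the only one of the 16 that leaves out 0, and no gene passed the threshold after adjustment over all probe sets.

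Whether the sexes responded differently was tested as the male minus the female difference. For 6 of the 8 genes it was below 0, with a median of −0.14 against 0.0017 over all named genes. The values farthest from 0 were −0.18 for Mobp (SE 0.11, limma adjusted p = 0.899), −0.16 for Aspa (SE 0.16) and −0.15 for both Mal (SE 0.12) and Cldn11 (SE 0.09). Limma called 0 of the 8 and 0% of probe sets after adjustment, and 0 of the 8 against 2358 probe sets (5.7%) at an unadjusted p under 0.05.

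The level of the myelin genes varied between mice of the same group, and it varied jointly. After centring each gene on its group mean, the SD over the 23 arrays ran from 0.10 for Cnp and Mbp to 0.20 for Aspa, against a median of 0.12 over named genes and of 0.09 over the 5013 whose mean was at least that of the lowest member. Aspa lay at the 92nd percentile over all named genes, with an SD of 0.11 in females and 0.26 in males, and Cnp at the 25th. On 5 arrays all 8 genes stood above their group means, namely knockdown female 1, control female 1, knockdown males 4 and 6 and control male 6. On 6 arrays all 8 stood below, namely knockdown female 6, control female 2, knockdown males 1 and 3 and control males 1 and 2. The mean deviation of the 8 genes ran from −0.21 in knockdown male 1 to 0.20 in control male 6. Both kinds of array occurred in all 4 groups.

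**Figure D3:**
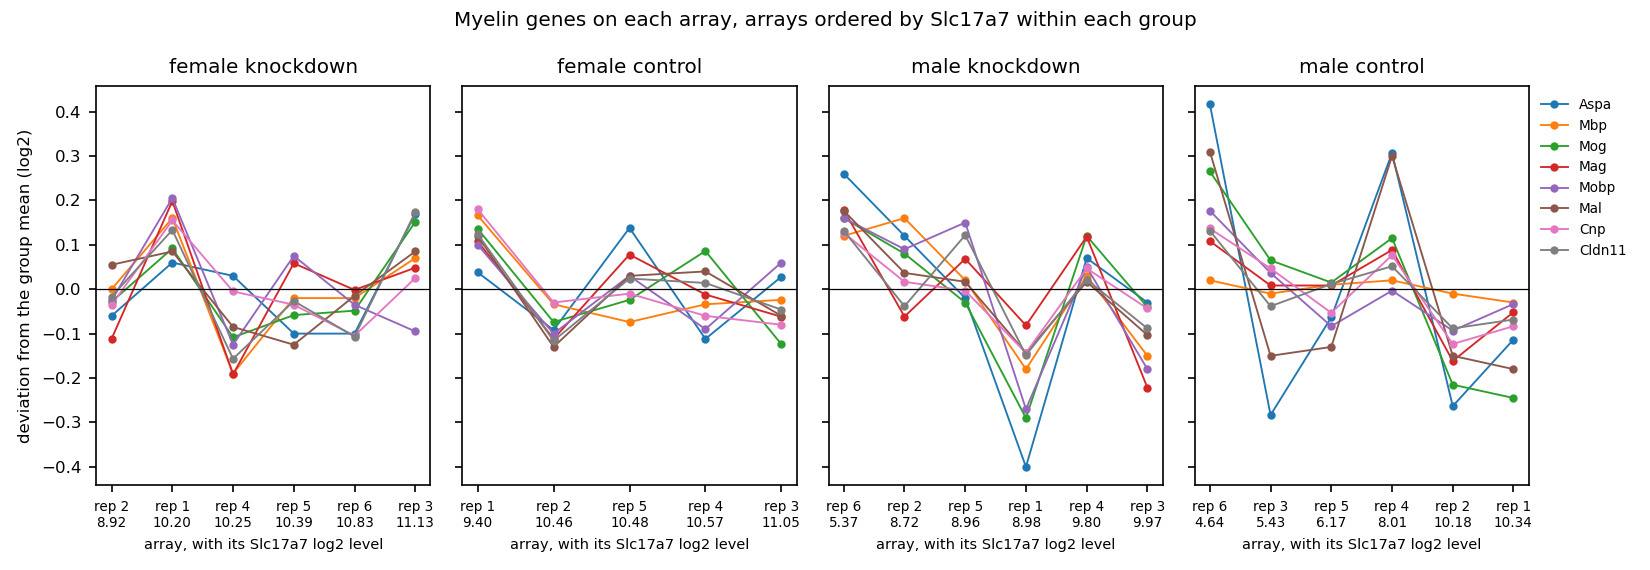
Deviation of each myelin gene from its group mean (log2), per array, with the arrays of each group ordered by their Slc17a7 level, printed under each. The 8 lines move alike on many arrays but not all. Mbp stays nearly flat in control males (−0.03 to 0.02), and on control males 3 and 5, 4 genes lie above and 4 below. Aspa (blue) makes the widest swings in both male groups.

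All 28 pairs of members correlated positively over the 23 centred arrays, with Pearson r from 0.44 (Aspa with Mbp) to 0.84 (Aspa with Mal) and a median of 0.69. In females r ran from 0.18 (Aspa with Mobp) to 0.89 (Mog with Cldn11), with a median of 0.63, and in males from 0.48 (Mbp with Mal) to 0.95 (Mog with Cnp), with a median of 0.77. These r share the arrays and their normalization and are a description. Each gene's r with the mean of the other 7 lay between 0.70 for Mbp and 0.86 for Cldn11.

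Mog, which is made by mature oligodendrocytes alone in the brain, was set against the other 7 in turn. Of 22179 named genes, Cnp had the highest r with Mog (0.82, Spearman rho 0.82, permutation p = 2e-05 for both), which was 0.79 without the 2 arrays farthest from the median of Mog. Mal ranked 8th (r = 0.78, rho 0.81, permutation p = 0.00048 and 3e-05), with 0.76 without those 2 arrays. Cldn11 ranked 11th (r = 0.77, rho 0.85, permutation p = 1e-05 for both, the smallest the permutations can give), with 0.75. Among the named genes, the one with the highest r with Mog was thus another member, and the members' ranks stood far above the median gene, whose r was 0.02. Probe sets without a single gene symbol were not ranked. Aspa ranked 24th (r = 0.74, rho 0.72, permutation p = 0.00167 and 0.00063), with 0.66. Mag ranked 145th (r = 0.66), Mbp 223rd (r = 0.63) and Mobp 390th (r = 0.59). Mobp had the weakest relation of the 7 (rho 0.54, permutation p = 0.0053 and 0.014). Permutations were made within groups, 37 relations were computed in all, and the p-values adjusted over all probe sets come from the limma slope. That slope was highest for Aspa, at 1.0 log2 unit per unit of Mog (SE 0.21, limma adjusted p = 0.172), followed by Mal at 0.78 (SE 0.15, limma adjusted p = 0.159), and it was lowest for Mbp at 0.44 (SE 0.14, limma adjusted p = 0.336). Limma called 0 of the 7 and 1 of 41344 probe sets (0.00242%) after adjustment. All 7 slopes were positive at an unadjusted p under 0.05, as were 5.03% (2079) of probe sets. Without the 4 males low in Slc17a7 the slope was 0.99 for Aspa, 0.80 for Mal and 0.55 for Mbp, with 0 of the 7 called. The share of all probe sets called in that fit was not counted.

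Within each sex the relation to Mog was uneven. In females it was closest for Cldn11 (r = 0.89, permutation p = 0.00068, n = 11 arrays) and Mal (r = 0.83), while Aspa had r = 0.37 (permutation p = 0.289) and Mobp r = 0.21 (permutation p = 0.558). Without the 2 female arrays farthest from the median of Mog, Cldn11 had 0.79, Mal 0.75, Aspa −0.03 and Mobp 0.34. In males it was closest for Cnp (r = 0.95, permutation p = 1e-05, n = 12 arrays) and Aspa (r = 0.82, permutation p = 0.0037), and Mobp had r = 0.74. Without the 2 farthest male arrays these were 0.89 for Cnp, 0.58 for Aspa and 0.41 for Mobp. Whether r differed between the sexes was not tested.

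Slc17a7 was set against the members because the punches differed in cortical transcripts. Every one of the 8 slopes on Slc17a7 was negative over the 23 arrays. The steepest was that of Mog, at −0.06 log2 unit per unit of Slc17a7 (SE 0.02, limma unadjusted p = 0.0039, adjusted p = 0.0889), then Mal at −0.04 (SE 0.02, adjusted p = 0.305) and Cnp at −0.03 (SE 0.01, adjusted p = 0.181) among those with an unadjusted p under 0.05. Limma called 0 of the 8 and 3.15% (1301) of probe sets after adjustment, and 3 of the 8 at an unadjusted p under 0.05, against 7.75% (3204) of probe sets with a negative slope at that level. Without knockdown male 4, Mog passed the threshold (slope −0.06, limma adjusted p = 0.0493). In the other 22 of the 23 fits with 1 array left out, 0 of the 8 passed. The share of all probe sets called in these fits was not counted, so the call of Mog cannot be set beside it. Without the 4 males low in Slc17a7, the slope of Mog stayed at −0.06 with an adjusted p of 0.714 in limma, and that of Mal was −0.10 with an adjusted p of 0.204.

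Because the males formed 2 clusters of Slc17a7, no correlation over all males is given. In the 11 females r ran from −0.42 for Cnp (rho −0.47, permutation p = 0.202 and 0.167) to 0.18 for Aspa (rho −0.10, permutation p = 0.613 and 0.783), and 6 of 8 were negative. Without the 2 females farthest from the median of Slc17a7 only 3 of 8 were negative, with Mbp, Mog, Mal and Cldn11 turning positive (0.20, 0.17, 0.24 and 0.25) and Mag negative (−0.04). In the 8 males of the higher cluster all 8 were negative, from −0.25 for Mobp to −0.83 for Mal (rho −0.86, exact permutation p = 0.0972 and 0.0361). The value of Mal rested on 2 arrays, since without the 2 farthest from the median of Slc17a7 its r was −0.24, and for Aspa, Mog and Cnp the sign then turned (0.17, 0.24 and 0.18). In males the knockdown arrays averaged 8.63 for Slc17a7 and the control arrays 7.46, with 1 of 6 knockdown and 3 of 6 control mice in the low cluster. With Slc17a7 as a covariate the male differences were −0.22 for Aspa, −0.04 for Mog, −0.07 for Mal and 0.03 for Cnp, with limma adjusted p-values from 0.989 to 0.994 over the 8 genes.

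**Figure D4:**
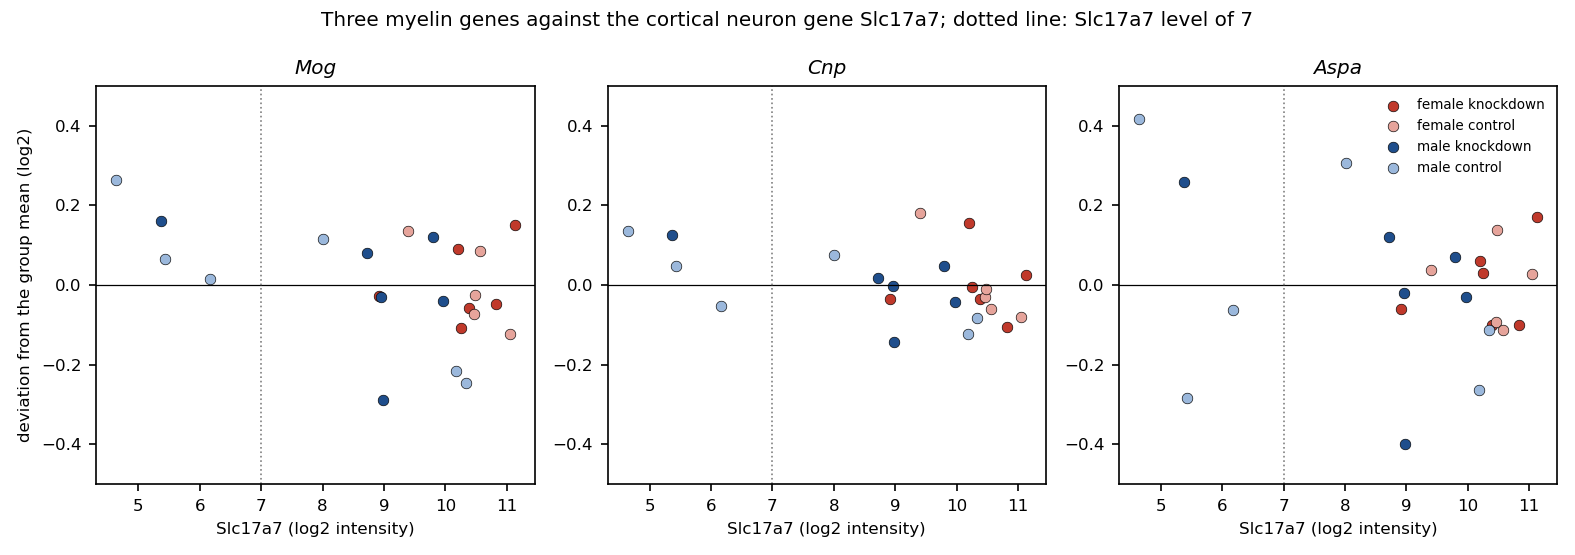
Deviation of Mog, Cnp and Aspa from the group mean (log2) against the Slc17a7 level (log2 intensity), 1 point per array, coloured by group; the dotted line at 7 parts the 4 males of the low cluster. Control male 6, at 4.64 for Slc17a7, has the highest deviation of Mog and of Aspa.

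Other genes of the lineage were followed through lists chosen with earlier results of these data known. Of 25 measured genes of mature oligodendrocytes besides the members, all 25 correlated positively with the mean of the 8 over the 23 arrays. Their median r was 0.61 and 14 lay above 0.5, where the median over all genes was 0.01 and 3.98% lay above 0.5. In females alone 21 of 25 had a positive r with the mean of the 8 (median 0.55), and in males 23 of 25 (median 0.67). The 10 genes most like that mean were Qdpr (r = 0.86), Gpr37 (0.83), Ermn (0.83), Olfr690 (0.82), Anln (0.81), Rcbtb1 (0.81), Pllp (0.80), Fam210a (0.79), Tmem63a (0.78) and Gabrq (0.78). Over female arrays alone Ermn had 0.30 and Fam210a 0.29, against 0.96 and 0.95 in males. The rest ran from 0.51 (Gabrq) to 0.85 (Qdpr) in females. Gabrq was dim, with a mean level of 5.55, under the lowest array median of 5.84. Qdpr encodes a reductase that recycles tetrahydrobiopterin, Gpr37 a receptor of oligodendrocytes, Ermn the myelin cytoskeletal protein ermin, and Pllp the myelin proteolipid plasmolipin. These 4 and Anln were on the list of mature oligodendrocyte genes, and the other 5 were on none. Opposite to the mean ran AU023762 (−0.85), Gadd45b (−0.81), a gene of the stress response, Grin2c (−0.79), an NMDA receptor subunit gene, Luzp2 (−0.78) and Ranbp3l (−0.78).

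Genes of earlier stages were set against the same mean, and differences between lists were not tested. All 5 genes of premyelinating cells were positive, with a median r of 0.50, among them Bcas1 (0.63) and Enpp6 (0.57). Over female arrays alone 4 of 5 were positive (median 0.38), and over male arrays 5 of 5 (median 0.59). Of 9 transcription factors 6 were positive, with a median of 0.50, led by Nkx6-2 (0.64) and Olig1 (0.59), while Sox10 had 0.50, Myrf 0.46 and Sox8 −0.12. Their list median was 0.40 in females and 0.47 in males. Nkx6-2 had 0.22 in females and 0.75 in males, and Sox8 −0.56 and 0.30. Of 9 genes of precursor cells 6 were positive, with a median of 0.12. By set, 4 of 9 precursor genes were positive in females (median −0.09) and 6 of 9 in males (median 0.14). In the N-acetylaspartate pathway, on which aspartoacylase acts, 3 of 5 were positive (median 0.15). Rimklb had r = 0.66 and Folh1 0.55, genes of enzymes that make and cleave the dipeptide N-acetylaspartylglutamate. In males Rimklb had 0.81 and Folh1 0.89, against 0.03 for Rimklb and −0.42 for Folh1 in females. Of the 5 genes, 4 were positive in males (median 0.33) and 1 in females (median −0.42). Genes of other cells had medians of 0.35 for astrocytes, 0.11 for ependyma, 0.04 for microglia, 0.03 for endothelium and −0.10 for medium spiny neurons. The first 4 of these medians differed between the sets. Over female arrays alone they were −0.32 for astrocytes, 0.07 for ependyma, −0.18 for microglia and −0.06 for endothelium. Over male arrays alone they were 0.49, 0.14, 0.23 and 0.15 in the same order. Of the medium spiny neuron genes 0 of 10 were positive over all arrays, but 8 of 10 were in females alone (median 0.14). Cortical neuron genes are given for females alone, because of the male clusters, and there 3 of 8 were positive with a median of −0.13.

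**Figure D5:**
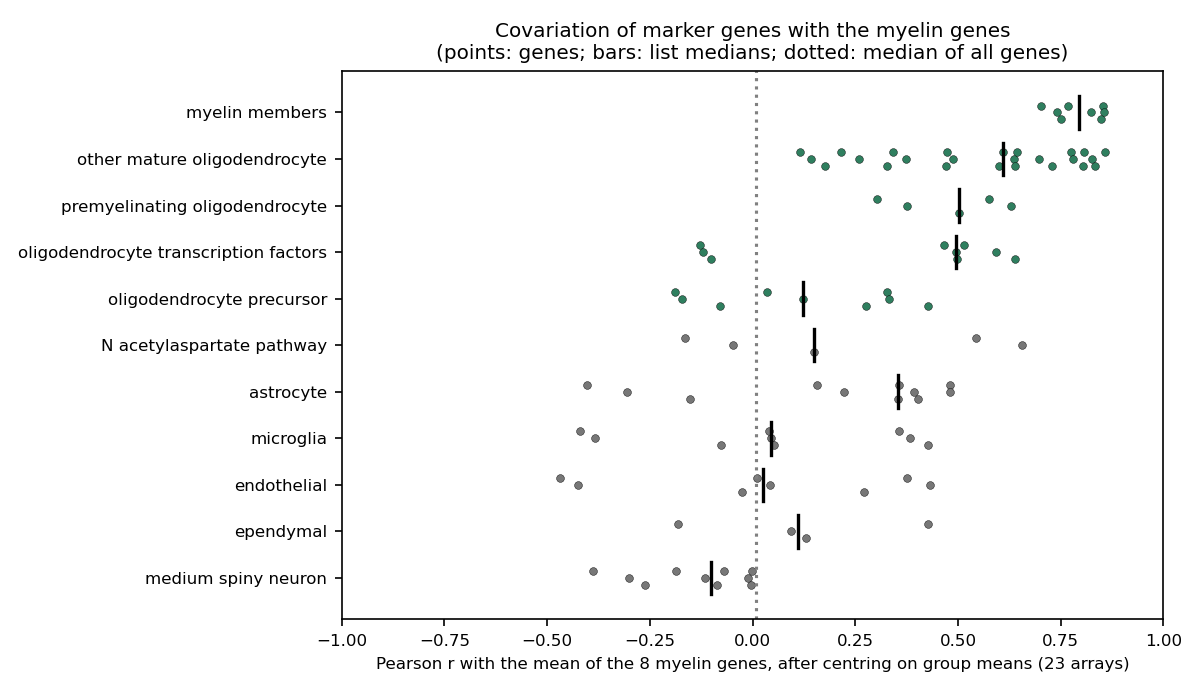
Pearson r of each gene (points) with the mean of the 8 myelin genes over the 23 arrays after centring on group means, by list (rows), with the list median as a bar and the median of all genes dotted; each myelin gene is set against the mean of the other 7. Over all arrays, mature oligodendrocyte genes, with a median of 0.61, all lie right of 0, and medium spiny neuron genes all lie left of it. In females alone 21 of 25 and 8 of 10 had a positive r, and in males alone 23 of 25 and 0 of 10.

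Between knockdown and control mice these lists showed no call either. In limma 0 of the 25 other mature oligodendrocyte genes passed after adjustment, with 13 higher and 12 lower in knockdown females and 7 higher and 18 lower in knockdown males. The smallest p-values belonged to the connexin gene Gjc3 (0.16, SE 0.10) and Fa2h (0.14, SE 0.08), whose enzyme hydroxylates myelin lipids, in females, and to Ermn (−0.16, SE 0.11) and the tetraspanin gene Tspan2 (−0.15, SE 0.10) in males. Averaged over the sexes they belonged to Pllp (−0.06, SE 0.05) and the carbonic anhydrase gene Car2 (−0.07, SE 0.06). Of the transcription factors, Myrf (0.09, SE 0.07) and Olig1 (−0.09, SE 0.08) led in females, and Zfp536 (0.13, SE 0.10) and Nkx2-2 (−0.08, SE 0.07) in males. Of the premyelinating genes, Enpp6 (0.11, SE 0.10) and Bcas1 (0.06, SE 0.06) led in females, and Bcas1 (−0.07, SE 0.06) and Gpr17 (0.05, SE 0.05) in males. The 0 calls stood beside 0 genes of these 3 lists at an unadjusted p under 0.05 in limma. Of all probe sets 0% were called after adjustment. At the unadjusted level 5.86% passed in females, 4.71% in males and 4.71% in the average.

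Precursor genes stood higher in knockdown males for 8 of 9, with a median of 0.06, and in knockdown females for 6 of 9, with a median of 0.0017. The medians over all named genes were 0.0033 in males and 0.0003 in females. In males 8 of 9 microglial genes (median 0.10) and 4 of 4 ependymal genes (median 0.09) were higher too, and their part in the precursor values was not tested. C1ql1, a secreted protein gene marking precursors, differed by 0.23 (SE 0.07, limma unadjusted p = 0.0037, adjusted p = 0.996), and the growth factor receptor gene Pdgfra by 0.10 (SE 0.07). In females the precursor genes Lhfpl3 (−0.16, SE 0.13) and Tnr (0.05, SE 0.05) had the smallest p-values. At an unadjusted p under 0.05 limma passed 1 of the 9 precursor genes in males, against 4.71% of all probe sets. It passed 0 of the 9 in females, against 5.86%. In the N-acetylaspartate pathway, Slc13a3, whose transporter takes up N-acetylaspartate, differed by −0.24 in females (SE 0.11, limma unadjusted p = 0.0406, adjusted p = 0.850), and Nat8l, whose enzyme makes it, by −0.09 (SE 0.07). In males Rimklb differed by −0.15 (SE 0.10) and Nat8l by 0.06 (SE 0.07). At an unadjusted p under 0.05 limma passed 1 of the 5 pathway genes in females and 0 of the 5 in males. The shares of all probe sets were 5.86% and 4.71%. In each sex 3 of the 5 genes of this pathway were lower and 2 higher in knockdown mice. Averaged over both sexes all 5 were lower, with a median of −0.02 against 0.0018 over all named genes. In limma 0 of the 5 passed after adjustment or at an unadjusted p under 0.05, against 0% and 4.71% of all probe sets.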

How the data were processed

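Per the labels' protocols, RNA was labelled from 150 ng of total RNA with a whole-transcript kit. The authors deposited log2 intensities per probe set in 1 table of 41345 probe sets and 23 arrays, made with Transcriptome Analysis Console per the submitters' processing notes. The sources used here do not give the normalization or the genome build. In the array's annotation 23521 probe sets had 1 gene symbol, 1814 had several and 16010 had none. The members and lists were chosen with earlier results of these data known.

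All 41345 probe sets entered 1 linear model with 4 group means in limma 3.58.1 (R 4.3.3), with 19 residual and 3.24 prior degrees of freedom, two-sided tests and Benjamini-Hochberg adjustment over all probe sets. The fit was tested on simulated data with noise drawn independently for each probe set and array, so covariation between genes was not covered. Slopes added the Slc17a7 or Mog level as a covariate. Correlations used values centred on group means, with 100000 permutations within groups, or all orders for 8 males. Arrays are 1 mouse each, and p-values rest on the spread between mice. Named genes are the 8 members, Nr1d1, Slc17a7, the 2 genes of smallest p per lineage list and contrast, the 10 most and 5 least like the members' mean, and list genes by their correlation. The number of arrays limits the precision.

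Alternatives were quantile normalization within sex, filters on dim and unnamed probe sets, array weights, trended robust variance, each sex alone, the replicate block, Slc17a7 as a covariate and each array left out. Leaving out the 4 males low in Slc17a7, and the relation to Mog in each sex alone, were added after seeing the data. Same-numbered knockdown and control arrays did not deviate together.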

Additional observations from a re-analysis of the deposited data

Results flagged for a closer look

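In 40 groups of 5 or 6 arrays, those of the 8 myelin genes, Nr1d1 and Slc17a7, 4 held an array far from the others by the gap to its nearest neighbour, and chance gives about 1 in 20. Control female 1 was high for 2 members: Mbp at 9.43, with the next array at 9.24 and the lowest at 9.19, and Cnp at 8.81, with the next at 8.62. All 8 members stood above the group mean on that array. Nr1d1 was low in control female 4, at 9.93, with the next array at 10.05. Slc17a7 was low in knockdown male 6, at 5.37, with the next knockdown male at 8.72, and all 8 members stood above the group mean there.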

How the results depend on the processing

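No myelin gene was called for knockdown against control, in any contrast, under any alternative, the lowest adjusted p in limma being 0.646 for Cldn11 in females, and Aspa in males kept its direction, from −0.33 to −0.19 with each array left out and from −0.30 to −0.22 otherwise. Differences near 0 changed sign. With Slc17a7 as a covariate, Cnp in males came to 0.0304, Mag on average to 0.012 and Mbp for the difference between sexes to 0.0081. Without the 4 males low in Slc17a7, Mbp in males came to −0.0073 and Cnp to 0.008. Mag on average came to 0.0037 with quantile normalization and 0.00851 with array weights. On female arrays alone the slope on Slc17a7 came to 0.0278 for Aspa and 0.0086 for Mag. With each array left out, values crossed 0 in females for Mbp (−0.006 to 0.0675) and Mog (−0.0167 to 0.0483), in males for Mbp (−0.022 to 0.046), Mag (−0.0057 to 0.0743) and Cnp (−0.0353 to 0.0187), on average for Mag (−0.025 to 0.017) and Mobp (−0.0147 to 0.0328), and for the difference between sexes for Mbp (−0.0575 to 0.02) and Cnp (−0.01 to 0.066). The cause was not tested. Probe sets called ranged from 0 to 1 with each array left out in females, in males and for the difference, which had 1 with array weights. Members called on the slope on Slc17a7 ranged from 0 to 1, with Mog called without knockdown male 4, where the share of all probe sets called was not counted.

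With the replicate block, 0 probe sets and 0 members were called in every contrast, and Aspa stood at −0.09 in females and −0.27 in males. The 11 same-numbered pairs correlated between −0.10 and 0.14, with 2 best matched to their own number. Pairing by number was thus not visible in these values, which cannot show whether the mice were paired. Each member has 1 probe set, so the planned mean over several was not run. Signal over background was not measured here.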

Other observations

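Some astrocyte genes stood in opposite relations to the myelin genes in the 2 sets of arrays. Of 11, 5 had a negative r in females and a positive one in males, 1 the reverse, and 5 the same sign in both. With the mean of the 8 members, 5 of 11 astrocyte genes had a positive r in females and 9 of 11 in males. The water channel gene Aqp4 had r = −0.78 in females and 0.41 in males, the receptor gene Fgfr3 −0.68 and 0.77, and the connexin genes Gjb6 −0.58 and 0.49 and Gja1 −0.32 and 0.75, over 11 female and 12 male arrays. These genes were chosen after their values were seen. Gfap was negative in both sets, at −0.49 and −0.41, and Aldoc (0.24 and 0.44), S100b (0.07 and 0.57), Agt (0.15 and 0.58) and Aldh1l1 (0.36 and 0.44) were positive in both. Medium spiny neuron genes were positive for 8 of 10 in females and 0 of 10 in males. All male r given here include the 4 arrays low in Slc17a7, and the part of these arrays was not tested. The r are descriptions over few arrays, and the difference between the sets was not tested.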
